A study of Mus musculus with 8 samples.

Results

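The Akr1c aldo-keto reductases were followed on 8 arrays of mouse pre-iPSCs, cells that set out towards induced pluripotency and stalled on the way. Members were all genes on mouse chromosome 13 whose annotated symbol starts with Akr1c, which gave 8 of the 18193 genes measured: Akr1c6, Akr1c12, Akr1c13, Akr1c14, Akr1c18, Akr1c19, Akr1c20 and Akr1c21. They are covered by 10 probe sets, 9 annotated to 1 member alone and 1 annotated to Akr1c12 and Akr1c13 together. The family was chosen by its signal differences between the groups of these same arrays, which were already known, so its values and calls stand here as a description and carry no test. The related Akr1cl, which lies on chromosome 1, is no member.

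All cells were grown in embryonic stem cell medium and were kept with siRNA for 3 days before RNA was taken. Control cells (n = 3 arrays) received siRNA to luciferase, a gene mammalian cells do not have. The group labelled 3XHMT (n = 2) received siRNA to Ehmt1, Ehmt2 and Setdb1 at once, which encode enzymes that methylate lysine 9 of histone H3, and the Cbx3 group (n = 3) received siRNA to Cbx3, which encodes HP1 gamma, a protein that binds this methylation. What the biological replicates of the labels repeated, a culture or an extraction, is not stated, so p-values measure the spread between these arrays, and the line or clone of the cells is not given in the sources used here.

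Aldo-keto reductases of the 1C subfamily use NADPH or NADH to reduce carbonyl groups of steroids, prostaglandins and foreign compounds, or to oxidise the alcohols. The mouse genes stand side by side and arose by repeated duplication, and individual members are known for high expression in liver, kidney, stomach, ovary or placenta. Akr1c18 inactivates progesterone in the ovary, Akr1c14 and Akr1c21 act on the hydroxyl groups of androgens, and Akr1c6 makes testosterone in liver.

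The 8 genes span 537.6 kb of chromosome 13 (positions 4048991 to 4586543 of assembly GRCm38.p6, from the RefSeq gene table), in the order Akr1c14, Akr1c18, Akr1c13, Akr1c19, Akr1c12, Akr1c6, Akr1c20 and Akr1c21. The annotated starts of Akr1c18, on the minus strand, and Akr1c13, on the plus strand, face away from each other at a distance of 40.5 kb, while those of Akr1c14 and Akr1c18 point towards each other across 91.1 kb. The start taken for Akr1c14 is at position 4059591, inside its annotated gene, which begins at 4048991. Promoter windows of 300 bases, from 250 before the start to 50 after it, were taken from RefSeq for the 4 genes whose probe sets carry the differences described here: Akr1c14 (chr13:4059341-4059640, plus strand), Akr1c18 (chr13:4150597-4150896, minus strand), Akr1c13 (chr13:4190937-4191236, plus strand) and Akr1c12 (chr13:4279350-4279649, minus strand). They are printed from 5′ to 3′ on the gene's own strand, with CG dinucleotides, the sites of DNA methylation, in capitals.
Akr1c14: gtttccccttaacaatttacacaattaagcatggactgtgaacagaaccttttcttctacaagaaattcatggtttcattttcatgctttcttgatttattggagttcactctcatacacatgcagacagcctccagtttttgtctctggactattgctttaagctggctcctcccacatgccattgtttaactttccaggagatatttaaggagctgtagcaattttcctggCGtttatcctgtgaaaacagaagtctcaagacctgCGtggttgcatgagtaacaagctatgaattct
Akr1c18: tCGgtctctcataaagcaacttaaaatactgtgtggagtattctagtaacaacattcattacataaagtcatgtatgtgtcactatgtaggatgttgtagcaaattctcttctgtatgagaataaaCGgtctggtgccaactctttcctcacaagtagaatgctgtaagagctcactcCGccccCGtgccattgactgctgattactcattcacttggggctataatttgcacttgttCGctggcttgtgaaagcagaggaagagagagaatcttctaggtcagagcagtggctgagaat
Akr1c13: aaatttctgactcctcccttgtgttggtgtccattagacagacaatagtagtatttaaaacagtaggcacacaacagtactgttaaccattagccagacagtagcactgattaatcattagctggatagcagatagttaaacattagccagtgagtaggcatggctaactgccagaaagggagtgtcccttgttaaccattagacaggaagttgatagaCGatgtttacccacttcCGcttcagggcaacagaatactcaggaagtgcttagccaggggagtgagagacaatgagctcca
Akr1c12: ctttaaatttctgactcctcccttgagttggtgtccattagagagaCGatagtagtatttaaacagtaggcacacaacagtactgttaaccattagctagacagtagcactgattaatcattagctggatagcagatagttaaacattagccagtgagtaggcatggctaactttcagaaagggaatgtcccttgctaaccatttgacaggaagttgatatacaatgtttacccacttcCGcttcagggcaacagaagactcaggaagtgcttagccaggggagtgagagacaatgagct

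The windows of Akr1c12 and Akr1c13 were near copies, identical at 93.4% of aligned positions, whereas every other pair among the 7 members with a window was identical at 46.0% to 58.5%. The window of Akr1c18 held 5 CG dinucleotides, those of Akr1c12, Akr1c13 and Akr1c14 held 2 each, those of Akr1c19 and Akr1c21 held 1 each and that of Akr1c6 held 0, against a median of 7 over 27025 promoter windows. The core of the antioxidant response element, TGACNNNGC on either strand, was found in 12.5% of all windows. Among the members it was in that of Akr1c19 alone, at position 8 after the start. The letters of a TATA box (TATAAA) were found in 14.2% of windows and among the members in Akr1c6 alone, at position -164 from the start. A CCAAT box (CCAAT) was found in 37.9% of windows and in Akr1c6, Akr1c14 and Akr1c19. A partial site for the liver factor HNF1 (GTTAAT) was found in 7.2% of windows and in Akr1c21 alone. E boxes (CANNTG) were in 72.1% of windows and in those of 6 members, all but Akr1c13. These matches describe the letters of the windows and say nothing of bound factors. Akr1c20 has no window in the table used.

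**Figure D1:**
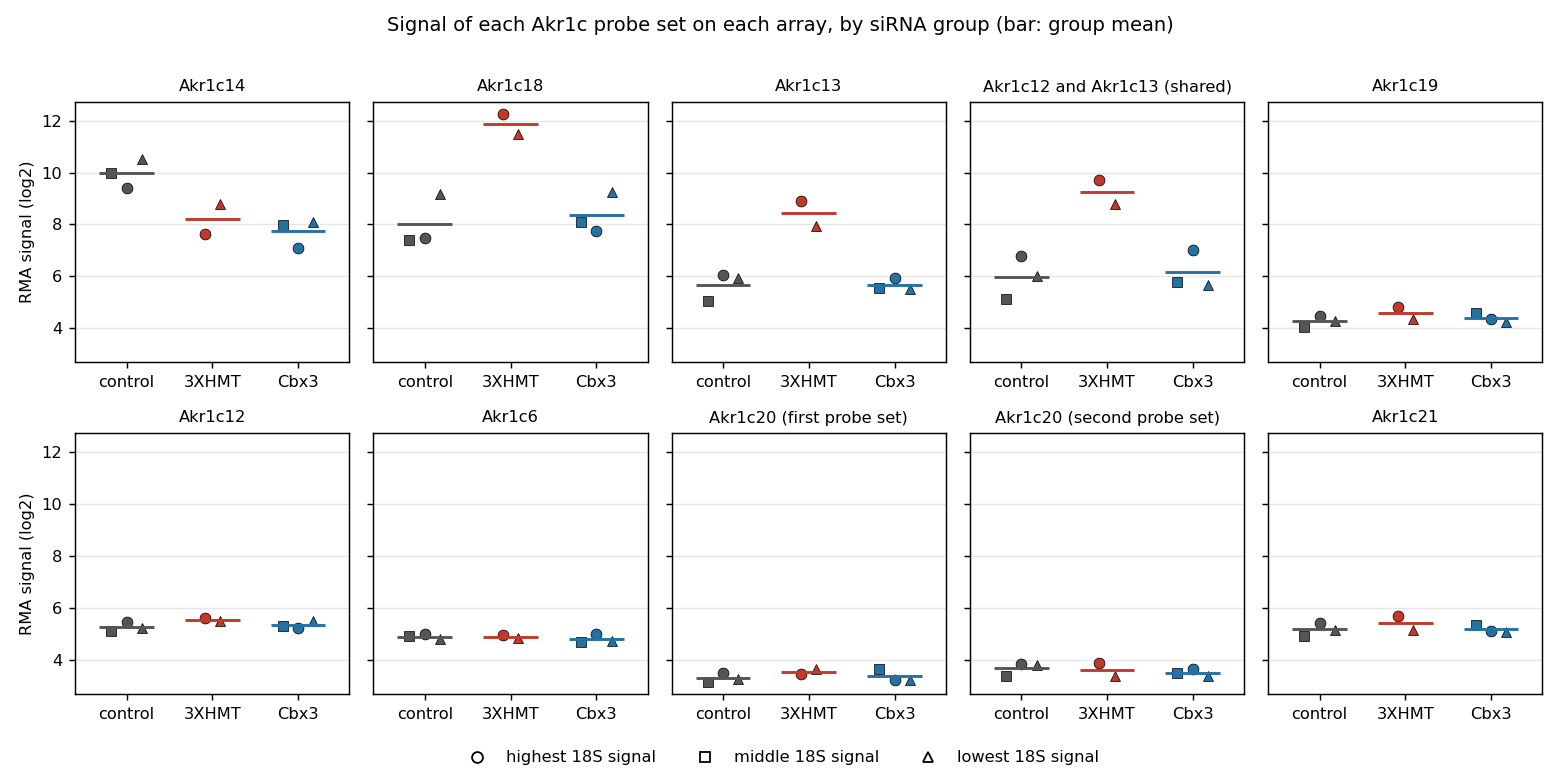
RMA signal (log2) of the 10 Akr1c probe sets on each of the 8 arrays, by siRNA group, with the group mean as a bar and the marker shape giving the array's level of 18S ribosomal RNA control signal. Akr1c18, Akr1c13 and the probe set shared by Akr1c12 and Akr1c13 are higher on both 3XHMT arrays than on every other array, Akr1c14 is lower on all 5 knockdown arrays than on every control array, and the remaining probe sets stay between 3.13 and 5.69.

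Akr1c18 and Akr1c13, neighbours in the run, were far higher after the methyltransferases were targeted and close to control after Cbx3 was targeted. Akr1c14, at the edge of the run beside Akr1c18, went the other way and was lower after both treatments. The remaining 5 genes stayed dim in every group at the probe sets of their own.

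Akr1c18, the progesterone-inactivating enzyme, had log2 signals of 7.40, 7.48 and 9.17 on the control arrays, 12.28 and 11.51 on the 3XHMT arrays, and 8.10, 7.75 and 9.26 on the Cbx3 arrays. Both 3XHMT arrays lay above all others, and the control and Cbx3 arrays overlapped. The mean difference between 3XHMT and control was 3.88 ± 0.62 (SE) on the log2 scale, 14.7-fold, which ranked 2 of 18193 genes from the highest. Between 3XHMT and Cbx3 it was 3.53 ± 0.62, and between Cbx3 and control 0.35 ± 0.55.

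The 3XHMT difference of Akr1c18 varied with the arrays compared. The arrays fall into 3 sets by the signal of an 18S ribosomal RNA control probe set: a middle set of control 1 (11.2) and Cbx3 1 (11.5), a high set made of 3XHMT 1 with control 2 and Cbx3 2 (12.6 to 12.8), and a low set made of 3XHMT 2 with control 3 and Cbx3 3 (9.98 to 10.2). Within these sets Akr1c18 was higher in 3XHMT than in control by 4.80 and 2.34, and in Cbx3 than in control by 0.70, 0.27 and 0.09. Control 3 and Cbx3 3, the arrays of the set with the lowest 18S signal, carried the highest Akr1c18 signals of their groups, while 3XHMT 2, of the same set, carried the lower signal of its group.

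Akr1c13, an oxidoreductase of alcohols and ketones, had signals of 5.05, 6.05 and 5.93 in control, 8.92 and 7.93 in 3XHMT, and 5.54, 5.95 and 5.51 in Cbx3. The 3XHMT arrays stood apart from all others here too, and the control arrays lay on both sides of the Cbx3 arrays. The difference between Cbx3 and control was -0.01 ± 0.33 (SE) on the log2 scale, against 2.75 ± 0.37 between 3XHMT and control. In control the probe set lay at the 46.7th percentile of all probe sets by mean signal, and in 3XHMT at the 77.5th. Within the array sets Akr1c13 was higher in 3XHMT than in control by 2.87 and 2.01.

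The probe set annotated to both Akr1c12 and Akr1c13 followed Akr1c13. Its signals were 5.12, 6.78 and 6.01 in control, 9.72 and 8.80 in 3XHMT, and 5.79, 7.02 and 5.68 in Cbx3, with a difference of 3.29 ± 0.56 (SE) between 3XHMT and control, 9.76-fold. The probe set annotated to Akr1c12 alone gave 5.11, 5.47 and 5.23 in control, 5.62 and 5.47 in 3XHMT, and 5.31, 5.23 and 5.49 in Cbx3. On that probe set the 3XHMT arrays were above the control arrays by a narrow margin, 0.28 ± 0.15 on average, and overlapped the Cbx3 arrays. The shared probe set cannot tell transcripts of these near-identical genes apart, so the part of Akr1c12 in its signal was not resolved. The annotation gives the same source sequence for the shared probe set and for that of Akr1c12 alone. Their signals differed, so the level of Akr1c12 was not settled.

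Akr1c14, the androgen-metabolising member, was the only one of the 8 lower in both treated groups without overlap. Its signals were 9.99, 9.41 and 10.54 in control, 7.62 and 8.80 in 3XHMT, and 7.99, 7.11 and 8.11 in Cbx3. All 5 knockdown arrays were below all 3 control arrays, and the knockdown groups overlapped each other. The difference from control was -1.77 ± 0.46 (SE) in 3XHMT, 3.41-fold lower, and -2.25 ± 0.41 in Cbx3, 4.75-fold lower. Each ranked 6 of 18193 genes from the lowest, and both use the same control arrays. RNA was taken from whole cultures, so fewer cells with the transcript and less of it per cell cannot be told apart.

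Akr1c14 signal also moved with the array sets, and the differences within them were even. In each group the array of the set with the lowest 18S signal was highest and that of the set with the highest 18S signal was lowest. Within the sets the 3XHMT difference from control was -1.79 and -1.74, and the Cbx3 difference -2.31, -2.002 and -2.43. Set against Cbx3 arrays of the same sets, 3XHMT arrays were higher by 0.52 and 0.69.

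**Figure D2:**
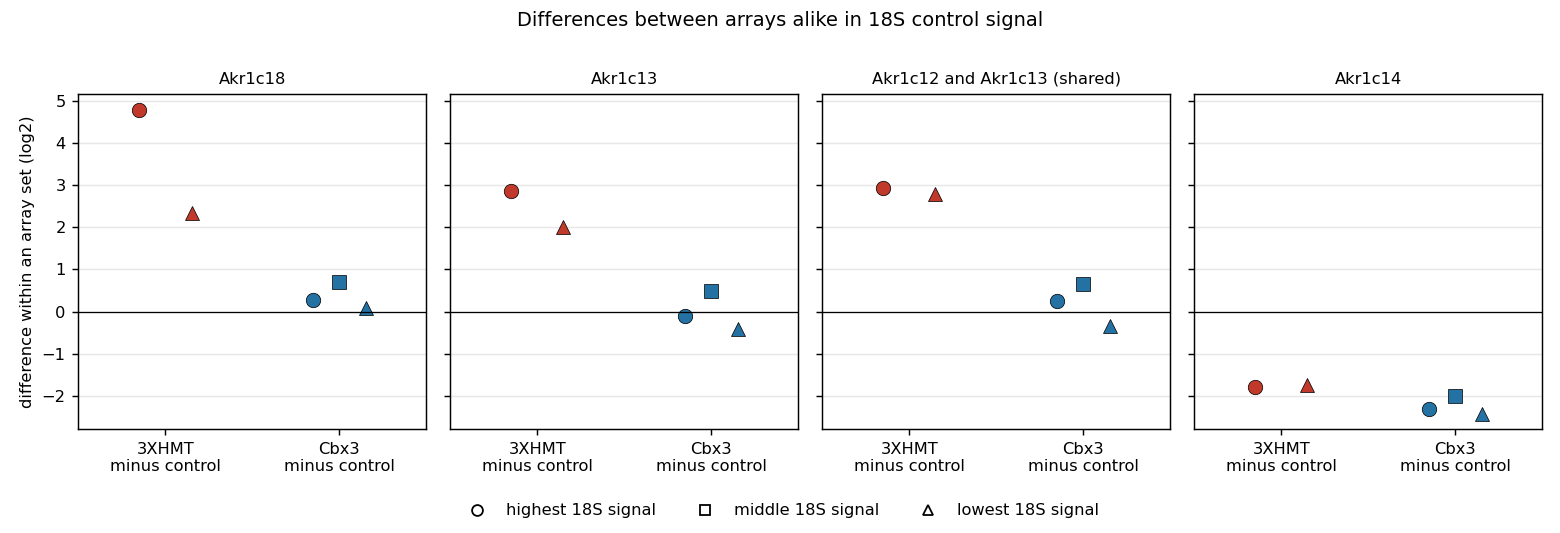
Log2 difference between each knockdown array and the control array of the same 18S set for the 4 probe sets that differed most, with marker shapes giving the set. Akr1c18 and Akr1c13 are above 0 in both 3XHMT pairs (2.34 and 4.80, 2.01 and 2.87) and near 0 in the Cbx3 pairs, whereas Akr1c14 is below 0 in all 5 pairs, from -2.43 to -1.74.

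The other members were dim throughout. Akr1c6, the testosterone-forming enzyme, lay between 4.685 and 4.996 on all 8 arrays, with differences from control of 0.00 ± 0.13 (SE) in 3XHMT and -0.08 ± 0.12 in Cbx3. Akr1c21, another androgen-metabolising member, lay between 4.91 and 5.69 and Akr1c19 between 4.04 and 4.80, each with its highest signal on the first 3XHMT array. The second 3XHMT array fell within the range of the control arrays for both genes. The pair of probe sets for Akr1c20 stayed between 3.13 and 3.87, with 3XHMT differences of opposite sign, 0.24 ± 0.17 and -0.05 ± 0.20. The array medians were 5.87 to 5.90, and the values carry no detection call, so that absence of these transcripts was not tested.

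By limma over all genes, 1 of 8 members (Akr1c13, higher) passed an adjusted p under 0.05 in 3XHMT against control, where 0.231% of all genes passed and 0.203% passed with a higher signal. Akr1c13 lost this call under each of the 8 omissions of an array, with log2 differences of 2.26 to 3.24, and Akr1c18 passed without control 3. In Cbx3 against control 0 of 8 passed by limma, where 0.445% of all genes did, and Akr1c14 alone had an unadjusted p under 0.05. With the replicate number as a block, which pairs these arrays, 1 of 8 members passed there (Akr1c14, lower), beside 1.71% of all genes (0.857% lower). In 3XHMT against Cbx3, 2 of 8 passed (Akr1c18 and Akr1c13, both higher), where 1.51% of all genes passed and 0.808% passed with a higher signal. Of these, neither passed without 3XHMT 1 or Cbx3 1, and Akr1c18 did not pass without 3XHMT 2 or Cbx3 2.

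With the 18S set as a block in the fit, 3 of 8 members passed in 3XHMT against control: Akr1c18 and Akr1c13 higher and Akr1c14 lower, beside 1.76% of all genes (0.868% higher and 0.89% lower). In Cbx3 against control 1 of 8 passed with that block (Akr1c14, lower), beside 6.59% of all genes (3.5% lower), and in 3XHMT against Cbx3 the 3 genes were all higher in 3XHMT, beside 9.12% (4.69% higher). Groups that did not overlap were found for 3 higher members and 1 lower in 3XHMT against control, where this held for 16.4% of all genes, 9.28% higher and 7.1% lower. The members were Akr1c18, Akr1c13 and Akr1c12, higher, and Akr1c14, lower. For Akr1c12 the lowest 3XHMT signal was 5.471 and the highest control signal 5.468. The corresponding counts were 0 higher and 1 lower in Cbx3 against control, beside 14.3% (6.78% lower), and 2 higher in 3XHMT against Cbx3, beside 26.7% (13.2% higher). The median difference of the members was 0.26 in 3XHMT and 0.00 in Cbx3 against control, with medians of all genes of 0.01 in each.

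**Figure D3:**
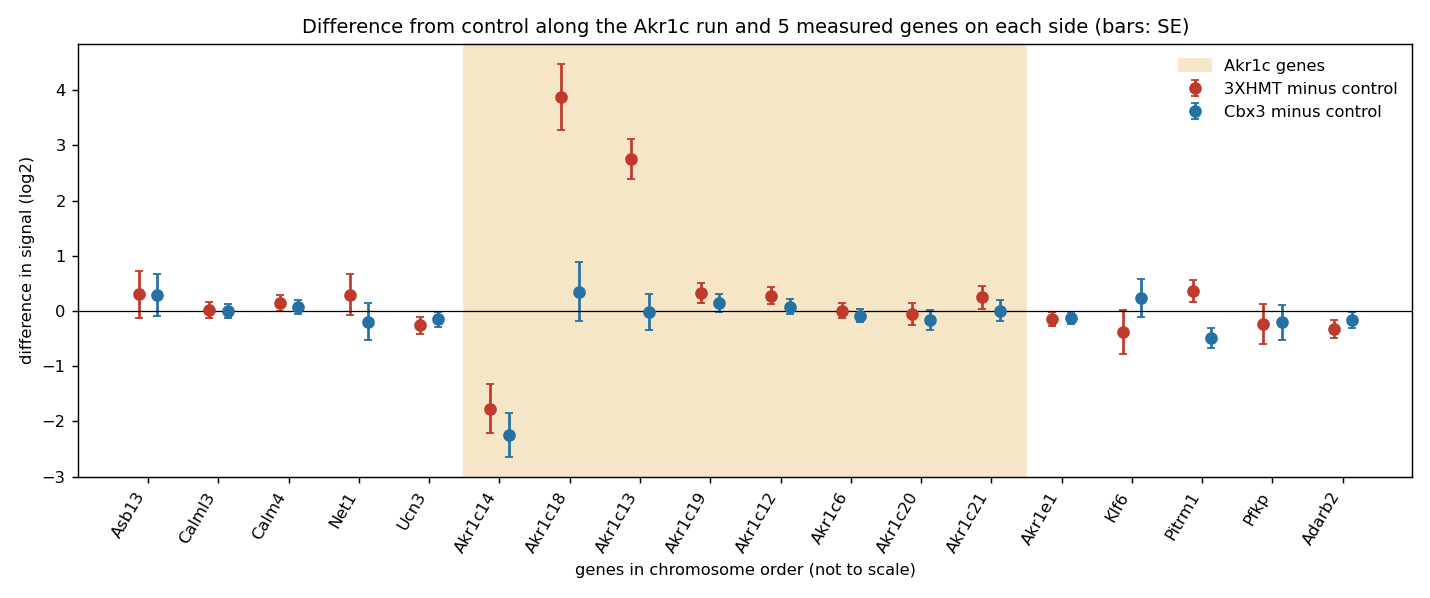
Log2 difference from control (mean, with SE) of the Akr1c genes, shaded, and of 5 measured genes on each side, in chromosome order with even spacing, for 3XHMT and Cbx3. The differences of 3.88, 2.75 and -1.77 in 3XHMT and of -2.25 in Cbx3 belong to 3 genes at one end of the run, and no flanking gene differs by more than 0.49 in size.

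The genes beside the run were examined to see how far the differences reach. Of 10 flanking genes 0 passed by limma in 3XHMT against control, with 0 at an unadjusted p under 0.05 and differences of -0.38 to 0.37. Of the same genes 0 passed in Cbx3 against control, with 1 at an unadjusted p under 0.05. Ucn3, a hormone gene next to Akr1c14, stood at 4.67 ± 0.22 (SD, n = 3) in control and differed by -0.26 ± 0.16 (SE) in 3XHMT (adjusted p = 1.00). Akr1e1, an aldo-keto reductase at the other edge of the run, stood at 9.82 ± 0.09 (SD, n = 3) in control and differed by -0.14 ± 0.13 in 3XHMT (adjusted p = 1.00) and -0.13 ± 0.12 in Cbx3 (adjusted p = 0.903). Pitrm1, a mitochondrial peptidase gene farther along, was 0.49 ± 0.18 lower in Cbx3 than in control (adjusted p = 0.390; 0.0167 with the 18S set as a block) and 0.86 ± 0.20 higher in 3XHMT than in Cbx3 (0.0913; 0.00208).

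Aldo-keto reductases outside the Akr1c run were close to control. Of the 9 relatives listed, 7 had a probe set of their own. Akr1e1 is among them and is also counted as a flanking gene. Of the 7, 0 passed by limma in either comparison with control, with 1 at an unadjusted p under 0.05 in each. That was Akr1b8, a growth factor-induced member, 0.56 ± 0.19 (SE) higher in 3XHMT (adjusted p = 0.694) and 0.44 ± 0.17 higher in Cbx3 (0.451). The housekeeping aldehyde reductase Akr1a1 stood at 13.41 ± 0.01 (SD, n = 3) in control and differed by -0.11 ± 0.11 in 3XHMT and 0.11 ± 0.10 in Cbx3 (adjusted p = 1.00 and 0.905).

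Akr1c genes are known targets of the oxidative stress factor Nrf2 in other settings, and a list of 36 genes of that response had 32 measured. In 3XHMT against control 0 of the 32 passed by limma, with 1 higher and 2 lower at an unadjusted p under 0.05 and a median difference of -0.04. Hmox1, heme oxygenase, was 1.35 ± 0.63 (SE) higher (adjusted p = 1.00; 0.0367 with the 18S set as a block), and the oxidase gene Aox1 0.71 ± 0.14 lower (0.162; 0.0455). With that block 1 of the 32 passed higher and 2 lower, beside 1.76% of all genes (0.868% higher and 0.89% lower). The second lower gene was Gsta2, lower by 0.758 ± 0.425 (adjusted p = 0.0223 with the block). In Cbx3 against control the cystine transporter gene Slc7a11 fell 3.70-fold (adjusted p = 0.0315), a call that was lost when any 1 array other than control 1 was left out, while 24 of the 32 were higher, with a median of 0.18. Of these, 0 passed by limma, 6 had an unadjusted p under 0.05, and 3 passed with the 18S set as a block: Gsta2 (adjusted p = 0.00255), Nqo1 (0.0291) and Srxn1 (0.0371). Of the 32, 2 passed lower with that block: Slc7a11 (adjusted p = 0.0024) and Aldh3a1 (0.0114), the latter 2.24-fold lower. Gsta2, Nqo1 and Aldh3a1 are named after their values were seen. Of all genes, 6.59% passed with the block in this comparison, 3.5% with a lower signal. Between the knockdowns, Slc7a11 was 2.93-fold higher and Aox1 and the biliverdin reductase gene Blvrb 2.15-fold and 1.62-fold lower in 3XHMT than in Cbx3 (adjusted p = 0.0404, 0.0125 and 0.0306). Of these 3 calls, those of Slc7a11 and Blvrb were lost without either 3XHMT array, any 1 of the Cbx3 arrays, or control 2, and that of Aox1 without either 3XHMT array or Cbx3 1. At its second probe set Slc7a11 differed by 0.93 on the log2 scale between the knockdowns (adjusted p = 0.175), and by 1.24 as the mean of its probe sets (0.0537). Gsta2 was 3.64-fold lower in 3XHMT than in Cbx3 (adjusted p = 0.0866). With the 18S set as a block its log2 difference there was -2.101 (adjusted p = 0.000249). With that block 2 of the 32 passed higher and 5 lower between the knockdowns, beside 9.12% of all genes.

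Genes that make or use the substrates of these enzymes were listed as well, with 31 of 40 measured. Ptgs2, the inducible prostaglandin synthase, rose in both comparisons with control, 2.97-fold in 3XHMT (adjusted p = 0.0283) and 3.72-fold in Cbx3 (0.00706). It was the only listed gene to pass in either without a block, where 0.231% and 0.445% of all genes passed. At its second probe set Ptgs2 differed by 0.88 and 0.98 on the log2 scale (adjusted p = 0.239 and 0.0679), and the call in 3XHMT was lost without control 1, control 2, either 3XHMT array, Cbx3 1 or Cbx3 2, that in Cbx3 without Cbx3 2. The estrogen receptor gene Esr1 was 3.13-fold lower in Cbx3 than in control (adjusted p = 0.120; 0.00138 with the 18S set as a block), and the prostaglandin D synthase gene Ptgds 1.98-fold higher (0.124; 0.0117). With that block 2 of the 31 passed higher in Cbx3 (Ptgs2 and Ptgds) and 1 lower (Esr1), beside 6.59% of all genes (3.5% lower). In 3XHMT against control 1 passed higher with the block (Ptgs2) and 0 lower, beside 1.76% (0.868% higher). Cyp11a1, which starts steroid synthesis, was 0.78 ± 0.27 (SE) higher in 3XHMT than in control (adjusted p = 0.689). The list's median difference was 0.03 in 3XHMT and -0.01 in Cbx3.

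**Figure D4:**
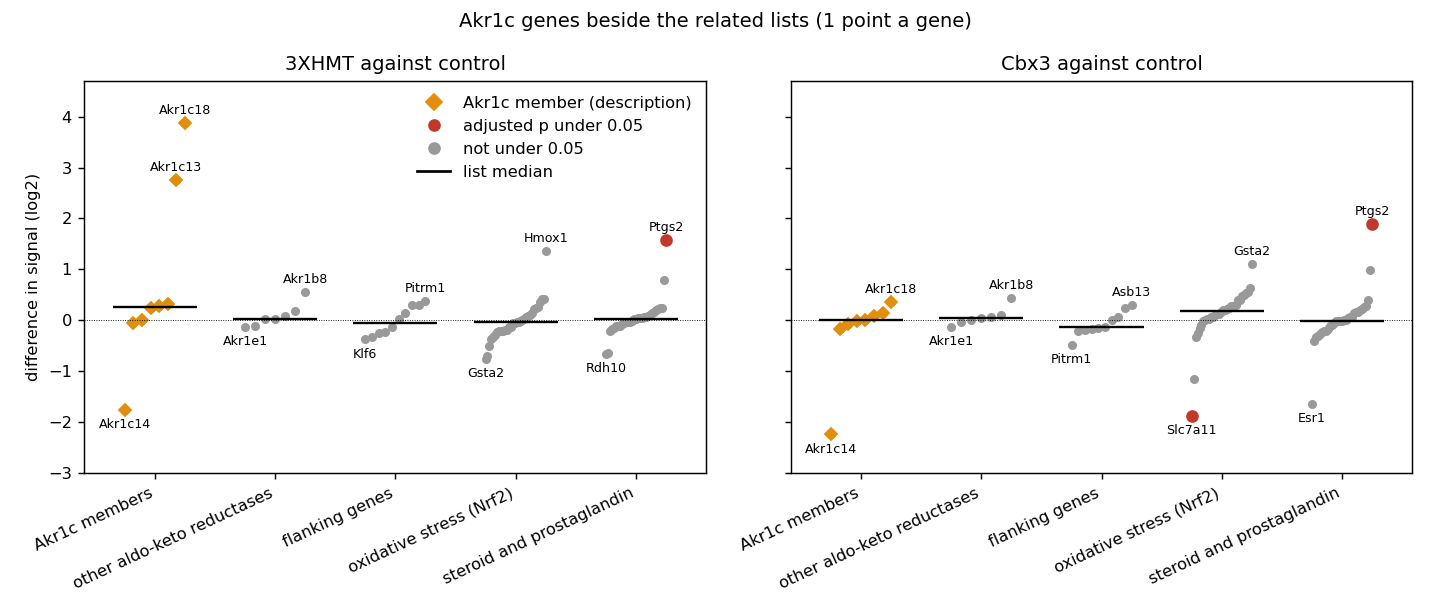
Log2 difference from control of each Akr1c member and of each measured gene of 4 other lists, with 3XHMT on the left and Cbx3 on the right, list medians as bars and genes with a limma adjusted p under 0.05 in red (members are drawn as diamonds without a call). Among the listed genes that are no members, Ptgs2 passes in both panels and Slc7a11 in Cbx3 alone, and Akr1c18 (3.88) and Akr1c13 (2.75) lie above every listed gene in 3XHMT.

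Markers of cell types that normally carry Akr1c transcripts were followed beside the members. The mean signal of 7 measured hepatocyte genes was 5.41 to 5.56 on control, 5.44 to 5.53 on 3XHMT and 5.46 to 5.68 on Cbx3 arrays. The 6 kidney tubule genes had means of 4.92 to 5.28, 5.03 to 5.08 and 4.96 to 5.16, and the 5 measured steroidogenic genes 5.46 to 5.68, 5.73 to 5.82 and 5.59 to 5.86, in the same order of groups. The steroidogenic mean was thus above the control range on both 3XHMT arrays, while the highest mean of all, 5.86, was on a Cbx3 array. The part of these genes in the Akr1c values was not tested. Of these 3 lists 0 genes passed by limma in either comparison with control, with 2 at an unadjusted p under 0.05 in 3XHMT (Cyp11a1 higher and the transporter gene Slc22a6 lower) and 1 in Cbx3 (Slc34a1, lower). The labelled cell type was checked too: 5 of 6 reprogramming and pluripotency genes that mark pre-iPSCs lay above the median of all genes in control, and 1 of 5 pluripotency genes that should be low did. The mean signal of those 5 genes was 6.50 to 7.15 on control, 8.57 to 9.29 on 3XHMT and 7.17 to 7.85 on Cbx3 arrays, so it moved with Akr1c18 and Akr1c13 in 3XHMT, where 3 of the 5 passed by limma, and its part in the Akr1c values was not tested. These 3, named after their values were seen, were Dppa4, Nanog and Zfp42, whose calls were lost under 2, 6 and 8 of the 8 omissions of an array. Nanog also passed in Cbx3 against control, 9.94-fold higher (adjusted p = 0.0151, lost under 2 omissions, of control 1 and of control 2). In that comparison Akr1c18 and Akr1c13 differed by 0.35 and -0.01. Zfp42 and Dppa4 differed there by -0.25 and -0.32 and did not pass. Dppa5a and Esrrb, of the same list, differed by 0.16 and 0.44 and did not pass either.

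Among non-members, the genes most like Akr1c18 over the 8 arrays were Naalad2, Gpr37, Nabp1, Ttc37 and St6galnac3, with Pearson r of 0.98, 0.96, 0.96, 0.95 and 0.95. For Akr1c13, added after its values were seen, they were Uba1y, Slc27a2, Gm364, Zfp42 and Dcn, with r of 0.995, 0.986, 0.986, 0.981 and 0.973, among them Zfp42, a gene of naive pluripotency. For Akr1c14, added likewise, they were Stk26, Zfp711, Ncam1, Dpysl3 and Ereg, with r of 0.96, 0.94, 0.93, 0.92 and 0.91. The 8 arrays come in 3 groups, and these coefficients, over 1184 genes with an SD of at least 0.5, hold the group differences as well as the spread within groups.

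Of the targeted transcripts, Cbx3 alone passed limma over all probe sets, at probe sets it shares with a pseudogene (adjusted p = 0.0453 and 0.0465). Other probe sets shared in this way gave 0.0525 and 0.967. Over genes, Setdb1 passed in 3XHMT against control with the 18S set as a block (adjusted p = 0.0295), and not without it (0.339). In 3XHMT the brightest probe sets of Setdb1, Ehmt2 and Ehmt1 stood at 63.2%, 66.8% and 79.6% of control (adjusted p over all probe sets = 0.556, 1.00 and 1.00; 0.0520, 0.294 and 0.217 with the 18S set as a block). The 3XHMT and control arrays did not overlap for Setdb1 and overlapped for Ehmt2 and Ehmt1 at these probe sets. Setdb1 was also read at a probe set with a control mean of 5.12, where 3XHMT kept 60.9% of the signal (adjusted p = 0.0525 with the block). At its remaining probe set, with a control mean of 5.56, the share was 95.3% (0.92 with the block). For Ehmt2 the second probe set gave 75.5% (0.322 with the block). The brightest Cbx3 probe set, shared with the pseudogene Cbx3-ps5, was at 42.8% of control in the Cbx3 group (0.0453; 0.0031), and the dim probe set of Cbx3 alone at 82.9% (0.988; 0.517). By the same fit over 45037 probe sets, 0 of the 10 Akr1c probe sets passed in 3XHMT against control and 4 with the block, beside 0.0555% and 0.699% of all probe sets. In Cbx3 against control 0 passed, and 1 with the block, beside 0.0777% and 3.43%, and in 3XHMT against Cbx3 1 passed, and 3 with the block, beside 0.528% and 4.66%.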

How the data were processed

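The deposited table gives log2 signals for 45101 probe sets on each of the 8 arrays. The submitters' processing notes name RMA as the method the authors used, whose version is not given in the sources used here. RMA removes background, brings the arrays to 1 common distribution and combines the probes of a set, so a shift of most genes on an array is lost and fold changes near background are compressed.

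Gene symbols came from the platform's annotation table: 34945 probe sets had 1 symbol, 932 several and 9160 none, and 64 control probe sets were left out. The probe set brightest on average stood for a gene. A model of the 3 group means on the 8 arrays was fitted in limma 3.58.1 (R 4.3.3; linear fit with moderated variances, two-sided tests, 5 residual degrees of freedom), and p-values were adjusted over all 18193 genes by Benjamini-Hochberg. Every adjusted p comes from limma. The fit was tested on simulated data. The number of arrays limits the precision.

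The members, lists and tests were chosen with earlier results of these data known. Named genes are all members, the relatives, the 5 measured genes on each side, up to 4 genes of each list with the lowest p in a comparison, the targets, and the 5 genes most like the member with the largest difference. Slc34a1, Slc22a6, Gsta2, Nqo1, Aldh3a1, Dppa4, Dppa5a, Esrrb, Nanog and Zfp42 were named to spell out counts. Promoter windows come from RefSeq, build GRCm38.p6, and were aligned with Biopython 1.88.

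Replicate numbers, which the labels give, pair control and Cbx3 arrays (correlations of deviations from the group means of 0.57, 0.59 and 0.74) but not 3XHMT and control arrays (0.11 and -0.56). The block on the 18S sets follows the control and Cbx3 pairing.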

Additional observations from a re-analysis of the deposited data

How the results depend on the processing

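The 17 alternatives were run on the count of members past the threshold and on the log2 differences of the members, flanking genes, targets and listed genes. They were not run on the correlation coefficients of the genes most like a member. Akr1c18 and Akr1c13 kept their direction in 3XHMT against both other groups, and Akr1c14 kept its direction against control in both, under every alternative that could be fitted to them. Their log2 differences from control in 3XHMT ranged from 3.49 to 4.45, 2.26 to 3.24 and -2.36 to -1.18, and that of Akr1c14 in Cbx3 from -2.53 to -1.93.

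In 3XHMT against control the count of members past the threshold, 1 as reported, was 2 with the replicate block and with an intensity trend, 3 with the 18S sets as a block, 0 without dim probe sets (which left 2 members, Akr1c14 and Akr1c18, to test) and 0 with only the compared groups in the fit, and 0 to 1 when 1 array was left out. In Cbx3 against control the count of 0 became 1 with the replicate block and with the 18S sets as a block, and was 0 under every omission of an array. In 3XHMT against Cbx3 the count of 2 became 1 without dim probe sets and 0 to 2 when 1 array was left out, and 2 and 3 with the replicate block and the 18S block. Where an omission left 1 3XHMT array, that array was assumed to vary like the other groups. The count of all genes past the threshold was 42, 81 and 275 as reported, 97, 312 and 655 with the replicate block, 320, 1199 and 1660 with the 18S block, 0, 30 and 127 without dim probe sets, 24, 57 and 165 when genes were read at their second brightest probe set, and 10, 27 and 228 with only the compared groups. When 1 array was left out it ranged from 3 (without 3XHMT 1) to 22, from 2 (without Cbx3 2) to 34 and from 22 (without 3XHMT 2) to 273. The cause of these shifts was not tested. Without dim probe sets 6 members had no value.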
